A study of Mus musculus with 6 samples.

Results

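The 9 genes of the large bowel's secreted defences described here were measured in cultures treated with tumour necrosis factor: the antibody transporter Pigr, the bacteria-binding protein Dmbt1, the iron-withholding proteins Lcn2 and Ltf, the serum amyloids Saa1, Saa2 and Saa3, and the protease inhibitors Slpi and Wfdc2. They were taken by exact gene symbol, and each of the 9 symbols matched 1 row of the 29940 genes measured. Organoids, closed bodies of epithelium in Matrigel, had been grown from large intestinal crypts of C57BL/6J mice, an inbred strain, without any genetic change named in the labels; the age and sex of the mice and the cytokine's dose are not stated there. After 2 days in culture they received TNFα (TNF, 3 libraries) or no cytokine (Ctrl, 3 libraries) for 24 hours; the labels speak of a combination but name no other agent. The labels do not say whether libraries of a group came from separate mice or cultures, so p-values measure the spread between these libraries only, which may be technical.

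Pigr, the polymeric immunoglobulin receptor, sits on the basolateral face of gut epithelium, binds dimeric IgA made by plasma cells below, carries it across the cell and releases it into the lumen with part of itself attached. The other proteins are secreted: Dmbt1 (also called gp340) agglutinates bacteria through scavenger receptor cysteine-rich domains, Lcn2 (lipocalin 2) binds the siderophores with which bacteria take up iron, Ltf (lactoferrin) binds iron itself, serum amyloids A carry lipids and retinol and rise in inflammation, and Slpi and Wfdc2 belong to the family with whey acidic protein (WFDC) domains, of which Slpi inhibits neutrophil elastase. Several of them are known as genes that NF-κB, C/EBP and STAT factors switch on in inflamed mucosa.

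Levels are in FPKM, which divides a gene's fragments by its length and by the depth of its library, so that genes can be compared per length. The libraries held 4.18 to 4.8 gigabases of sequence, as recovered from the steps between low values, and 12254 to 12458 genes reached 1 FPKM in a library. Tnf rose from 4.86 ± 0.348 to 25.5 ± 1.68 FPKM (SD, n = 3, here and below) and the NF-κB inhibitor Nfkbia from 27.1 ± 2.10 to 151 ± 7.12 FPKM. The epithelial genes Epcam, Krt8, Vil1 and the intestinal factor Cdx2 were at 67.8 FPKM or more in every library. Of 12 epithelium markers, 3 were called higher in TNF, among them Krt8, and 4 lower, among them Cdx2 (limma adjusted p below 0.05). The Krt8 call was lost in 4 of 6 fits with a library left out. Ctrl 1 and TNF 3 stood apart by low values of some macrophage markers, though not of all. Lyz2 read 4.65 and 2.72 FPKM there, against 15.6 to 16.0 FPKM in the other libraries. The macrophage markers C1qb, C1qc, Csf1r and Itgam were likewise lowest in these libraries, and C1qa and Adgre1 only by a small margin. Cd68, Mrc1, Fcgr1 and Marco did not set both libraries apart.

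The promoters of the genes are shown first because the data place these genes far apart in level and direction although most carry letters of inflammatory motifs. RefSeq promoters on GRCm38.p6, from 250 bases before to 50 bases after the start of transcription, matched 8 of the 9 genes, with 2 entries for Wfdc2; none matched Dmbt1. Both strands were searched for letters of NF-κB (GGG and CC with 5 bases of any kind between), C/EBP (TTNNGNAA, where N is any base), STAT (TTCNNNGAA), AP-1 (TGANTCA) and IRF (GAAA and GAAA with 2 bases between), and matches are in capitals in the sequences below, read 5′ to 3′ along the gene. These loose patterns are common: of 32851 promoters of this length, 50.8% held the NF-κB letters, 40.7% the C/EBP, 8.3% the STAT, 7.81% the AP-1 and 3.44% the IRF letters. Pigr (chr1:130826434-130826733, plus strand), Lcn2 (chr2:32387690-32387989, minus strand) and Saa3 (chr7:46715627-46715926, minus strand) had higher values in TNF, while Saa1 (chr7:46742931-46743230, minus strand) and its neighbour Saa2 (chr7:46751583-46751882, plus strand) are a pair of like promoters with unlike levels.
Pigr: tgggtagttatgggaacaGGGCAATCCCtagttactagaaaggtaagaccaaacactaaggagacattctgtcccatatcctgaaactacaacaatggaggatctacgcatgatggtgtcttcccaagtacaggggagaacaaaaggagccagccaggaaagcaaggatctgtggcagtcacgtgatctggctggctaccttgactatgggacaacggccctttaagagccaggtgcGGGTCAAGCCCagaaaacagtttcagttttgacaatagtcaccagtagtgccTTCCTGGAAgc
Lcn2: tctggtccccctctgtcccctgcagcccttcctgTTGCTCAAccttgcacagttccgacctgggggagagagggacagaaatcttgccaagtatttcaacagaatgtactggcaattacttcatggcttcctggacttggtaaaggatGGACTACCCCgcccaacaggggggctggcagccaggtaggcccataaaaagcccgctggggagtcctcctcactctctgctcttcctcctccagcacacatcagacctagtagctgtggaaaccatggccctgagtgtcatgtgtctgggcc
Saa3: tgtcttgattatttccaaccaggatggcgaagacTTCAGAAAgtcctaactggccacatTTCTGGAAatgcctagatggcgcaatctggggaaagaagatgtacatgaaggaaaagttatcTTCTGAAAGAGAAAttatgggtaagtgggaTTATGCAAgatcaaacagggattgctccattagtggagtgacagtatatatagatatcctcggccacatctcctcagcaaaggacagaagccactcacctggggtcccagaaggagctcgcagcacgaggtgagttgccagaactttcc
Saa1: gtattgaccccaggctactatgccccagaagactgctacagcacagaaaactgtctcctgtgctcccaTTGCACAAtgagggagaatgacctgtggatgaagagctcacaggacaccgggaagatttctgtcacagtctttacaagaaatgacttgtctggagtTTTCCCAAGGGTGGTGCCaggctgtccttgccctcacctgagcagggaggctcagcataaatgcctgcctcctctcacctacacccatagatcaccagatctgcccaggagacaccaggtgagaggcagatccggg
Saa2: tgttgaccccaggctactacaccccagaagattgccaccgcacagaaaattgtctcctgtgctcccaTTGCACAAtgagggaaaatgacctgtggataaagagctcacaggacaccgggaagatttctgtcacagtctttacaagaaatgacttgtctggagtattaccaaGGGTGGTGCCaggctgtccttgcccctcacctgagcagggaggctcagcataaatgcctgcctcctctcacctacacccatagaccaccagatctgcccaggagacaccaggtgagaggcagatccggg
The Pigr promoter held NF-κB letters at -232 to -223 and, as overlapping matches on opposite strands, at -13 to -4 and -12 to -3. It held STAT letters at 40 to 48. Positions count the first transcribed base as 1, and there is no base 0. That of Lcn2 had NF-κB letters at -102 to -93 and C/EBP letters at -216 to -209. In Saa3 there were 4 C/EBP matches and 1 IRF match, which overlaps the third of the C/EBP matches, and no NF-κB match in this window. Saa1 and Saa2 were 95.3% identical over 301 aligned positions, against 50.9% for Saa1 and Saa3, and both carried NF-κB letters and an upstream C/EBP match. The Saa1 window had another C/EBP match at -86 to -79, directly before its NF-κB letters. NF-κB and C/EBP letters also lay in the Wfdc2 and Ltf windows, and Slpi had 3 C/EBP matches only. A match is a run of letters and does not show that a factor binds.

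**Figure D1:**
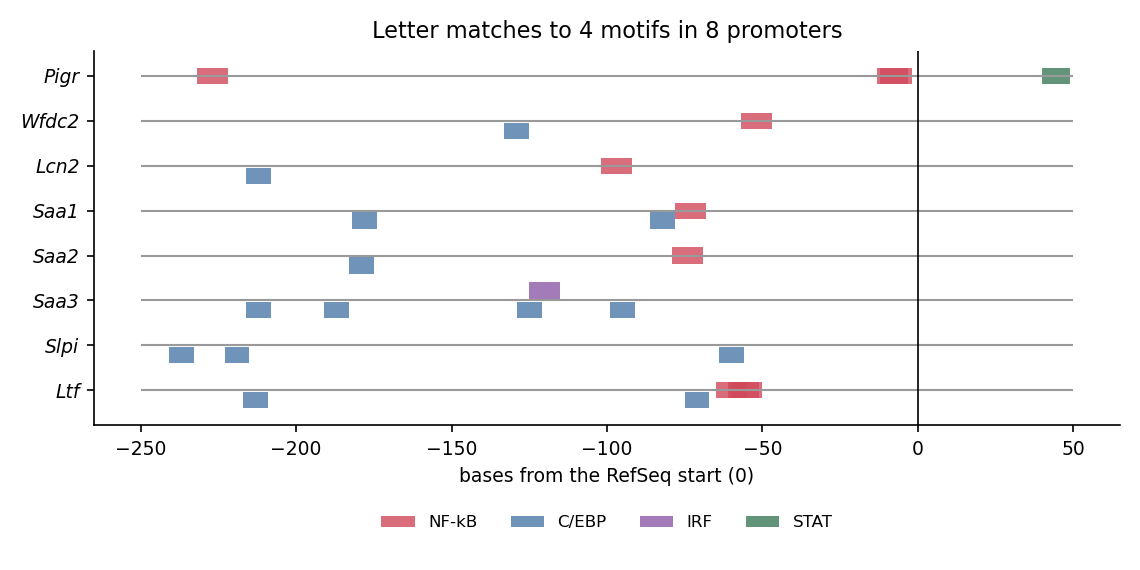
Positions of letter matches to the NF-κB, C/EBP, STAT and IRF patterns (coloured bars) in the promoters of 8 genes; the horizontal axis is the distance in bases from the RefSeq start, and no AP-1 match was found. NF-κB letters occur in Pigr, Wfdc2, Lcn2, Saa1, Saa2 and Ltf, among genes whose values were higher, lower or near 0 with TNF.

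The colon organoids had a very high level of Pigr in both groups. Dmbt1 with TNF was at 0.492 times its own Ctrl level, and Lcn2, Saa3, Saa1, Saa2, Slpi and Ltf were present only as traces. Of the 9 genes, 3 had a mean of at least 1 FPKM and were tested: Pigr was called higher, Dmbt1 lower, and Wfdc2 did not pass. Of all 12350 genes tested, 24.0% were called, 12.9% higher and 11.1% lower, so 2 of 3 is a count too small to set apart from that background. The groups did not overlap for any of these 3 genes, nor for 41.4% of all tested genes. The order of levels was the same in every library for the abundant genes, Pigr over Dmbt1 over Wfdc2, and the ranges of these 3 genes did not overlap in either group.

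Pigr (ENSMUSG00000026417, chromosome 1, 130826684 to 130852249, plus strand, GRCm38) read 1077, 1043 and 1058 FPKM in Ctrl 1 to 3 and 1166, 1202 and 1215 FPKM in TNF 1 to 3. All TNF libraries lay above all Ctrl libraries, by a small margin. The means were 1059.6 ± 17.1 and 1194 ± 25.2 FPKM, a ratio of 1.13, and the log2 change was 0.17 (SE 0.05, 95% interval 0.06 to 0.29, limma adjusted p = 0.0416). That call was lost whichever library was left out (adjusted p 0.0612 to 0.136) and without both Ctrl 1 and TNF 3 (adjusted p = 0.293), at log2 changes of 0.16 to 0.19. In level Pigr ranked 26th to 28th of the genes in Ctrl and 24th in each TNF library, and held 0.31% to 0.368% of the summed FPKM.

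Dmbt1 (ENSMUSG00000047517, chromosome 7, 131032053 to 131121630, plus strand) read 704, 735 and 757 FPKM in Ctrl 1 to 3 and 342, 366 and 372 FPKM in TNF 1 to 3. The groups were far apart against the spread within each, at 732 ± 26.7 and 360.1 ± 15.9 FPKM. The log2 change of -1.02 (SE 0.05, limma adjusted p = 1.71e-05) corresponds to a mean 2.03-fold lower in TNF. It was called in all 16 alternative fits, with log2 changes from -1.07 to -0.99 and adjusted p at most 0.00152. Its rank went from between 34 and 36 in Ctrl to between 62 and 75 in TNF. Per length there was 1.4 to 1.53 times as much Pigr as Dmbt1 RNA in the Ctrl libraries and 3.26 to 3.41 times as much in the TNF libraries. Windows of 149 bases, the length taken for a read, from Dmbt1 transcripts matched no other gene, and 1.73% of them recurred within a transcript of its repeated domains.

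Wfdc2, also known as HE4 (ENSMUSG00000017723, chromosome 2, 164562413 to 164568510, plus strand), read 33.3, 36.1 and 34.1 FPKM in Ctrl 1 to 3 and 31.3, 21.3 and 26.8 FPKM in TNF 1 to 3. The TNF libraries lay below the Ctrl libraries but spread widely, with TNF 1 near the Ctrl values. The means were 34.5 ± 1.45 and 26.5 ± 5.00 FPKM, and the log2 change of -0.39 missed the threshold (SE 0.12, 95% interval -0.66 to -0.11, limma adjusted p = 0.0524). It passed without TNF 1 (log2 change -0.51, adjusted p = 0.0133) and with only genes of at least 5 FPKM tested (adjusted p = 0.0416), while without TNF 2 the log2 change was -0.25 (adjusted p = 0.0726).

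**Figure D2:**
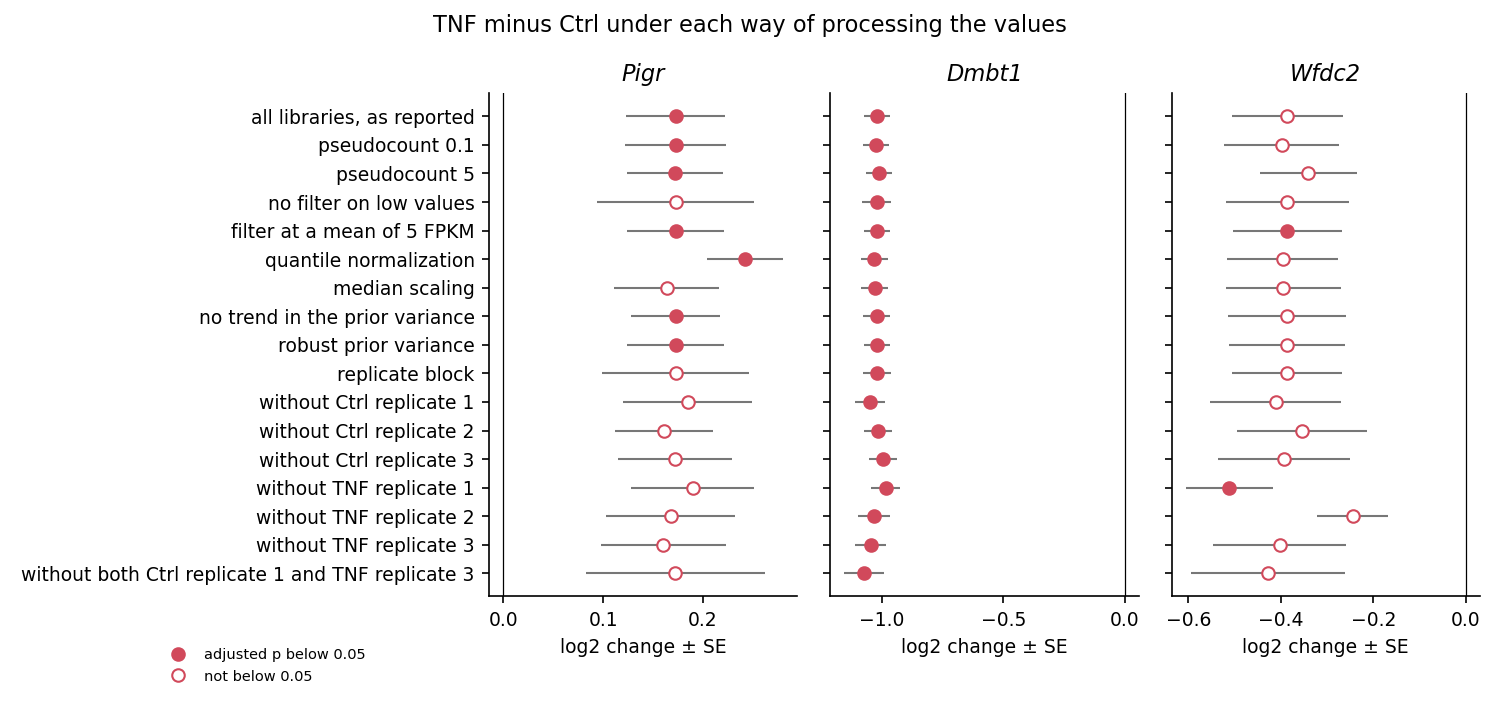
Log2 change (TNF minus Ctrl, with SE) of Pigr, Dmbt1 and Wfdc2 as reported and under 16 other settings, on a separate axis for each gene; filled points have an adjusted p below 0.05. Dmbt1 is filled throughout, Pigr in 6 of the 16 settings and Wfdc2 in 2, without TNF 1 and with genes of at least 5 FPKM only.

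**Figure D3:**
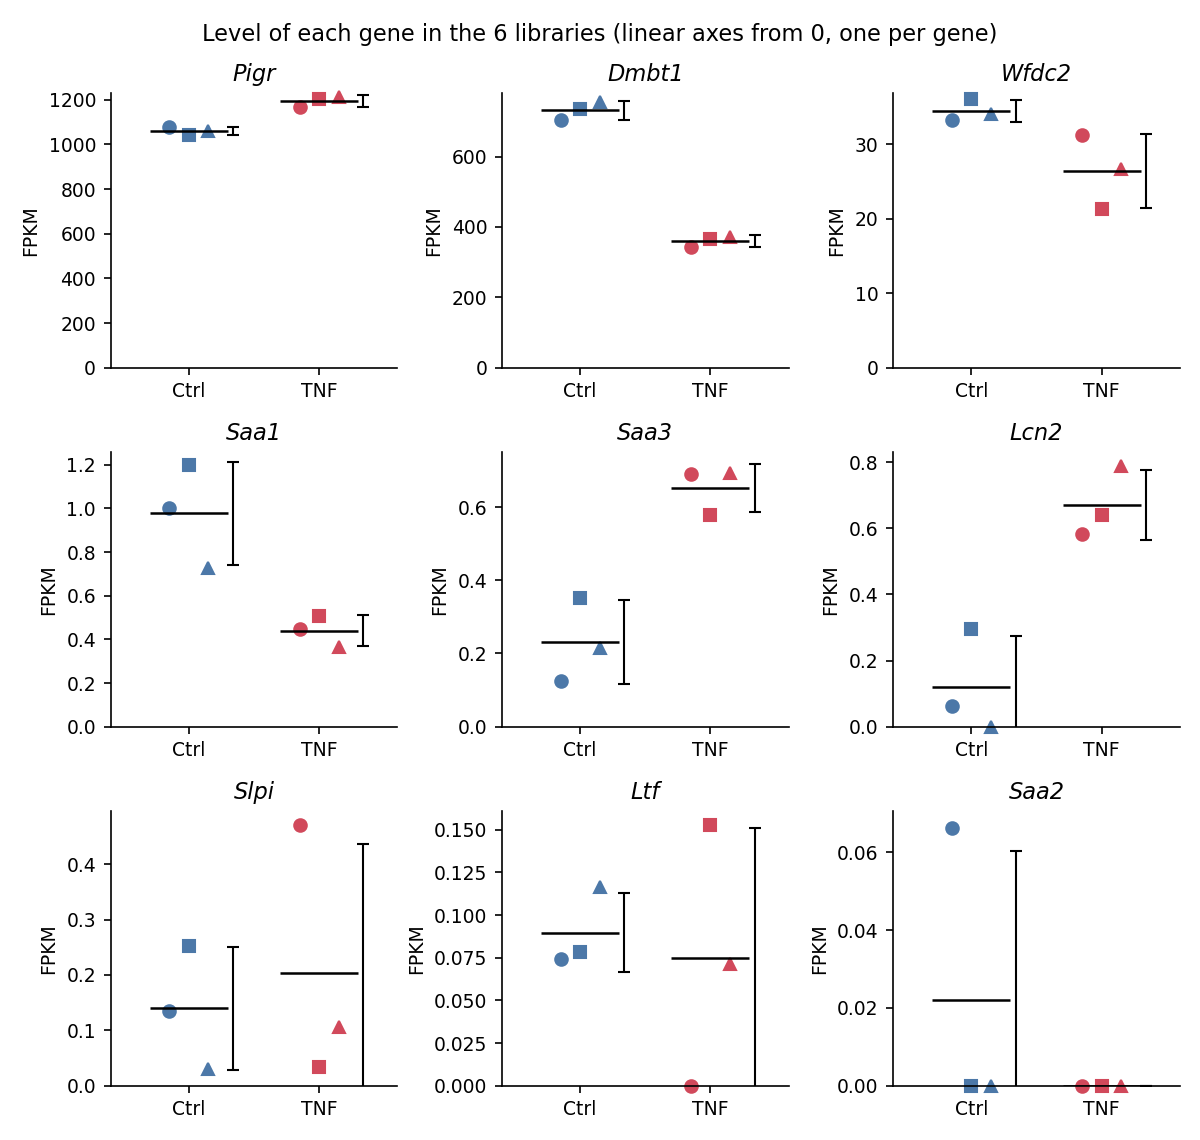
FPKM of the 9 genes in each library (circle, square and triangle for replicates 1, 2 and 3; line, mean; bar, SD, cut at 0), on linear axes that start at 0 and differ between genes. Pigr is at 1043 FPKM or more, Dmbt1 between 342 and 757 FPKM and Wfdc2 between 21.3 and 36.1 FPKM, and no other gene passes 1.2 FPKM.

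The other 6 genes lay under the mean of 1 FPKM and have no test with that filter. Lcn2 (ENSMUSG00000026822, chromosome 2, 32384633 to 32388252, minus strand) was at 0.0621, 0.296 and 0 FPKM in Ctrl 1 to 3 and at 0.584, 0.638 and 0.788 FPKM in TNF 1 to 3. All TNF values were above all Ctrl values. Depending on which of its transcripts they came from, those values stand for at most 12 reads in a Ctrl library and for 12 to 35 in a TNF library, a mean 5.62-fold higher that rests on few reads and was 21.6-fold without Ctrl 2 and 3.74-fold without Ctrl 3. Saa3 (ENSMUSG00000040026, chromosome 7, 46711998 to 46715700), the amyloid of macrophages and epithelia, was at 0.126, 0.353 and 0.216 FPKM in Ctrl 1 to 3 and at 0.689, 0.577 and 0.693 FPKM in TNF 1 to 3. It too was higher in each TNF library than in any Ctrl library, with a mean 2.82-fold higher, or 2.3-fold without Ctrl 1 and 3.82-fold without Ctrl 2.

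Saa1 (ENSMUSG00000074115, chromosome 7, 46740497 to 46742980), the main circulating form with Saa2, went the other way. It was at 1.00, 1.2 and 0.728 FPKM in Ctrl 1 to 3 and at 0.448, 0.506 and 0.364 FPKM in TNF 1 to 3, without overlap of the groups, and its mean was 2.22-fold lower in TNF. Saa3 was thus at 0.126 to 0.297 times the level of Saa1 in Ctrl libraries and at 1.14 to 1.91 times in TNF libraries. These ratios rest on few reads. Depending on the transcript, Saa3 stood for 2 to 23 reads in a Ctrl library and 10 to 49 in a TNF library, and Saa1 for 13 to 86 and 7 to 37. The sum of the 3 amyloid genes was 0.944 to 1.55 FPKM in Ctrl and 1.06 to 1.14 FPKM in TNF, with overlap. Saa2 (ENSMUSG00000057465, chromosome 7, 46751790 to 46754313) was at 0.0664 FPKM in Ctrl 1, at most 5 reads, and was listed at 0 in the other 5 libraries. Of the 149-base windows of Saa1 transcripts, 2.19% also occur in Saa2 and none in Saa3, and the labels do not say how such reads were counted.

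Slpi (ENSMUSG00000017002, chromosome 2, 164354070 to 164389095, minus strand), which shares 1 base of exon with Mir7678, was at 0.136, 0.253 and 0.0303 FPKM in Ctrl 1 to 3 and at 0.470, 0.0335 and 0.105 FPKM in TNF 1 to 3. The groups overlapped, and 1 TNF library held the highest value. Ltf (ENSMUSG00000032496, chromosome 9, 111019271 to 111042767, plus strand) was between 0.0742 and 0.117 FPKM in Ctrl and between 0 and 0.153 FPKM in TNF, also with overlap. At no more than 12 reads in any library for either gene, a difference was not detectable at this depth.

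Among these 6 scarce genes the groups did not overlap for 3, Lcn2 and Saa3 higher and Saa1 lower in TNF. The groups did not overlap for 10.9% (TNF higher) and 4.99% (TNF lower), 15.9% together, of the 17590 genes under the filter, many of which were near 0. Of the 4462 genes with a mean of 0.2 to 1 FPKM, the range that holds these 3, the groups were likewise apart in 19.0% with TNF higher and 10.4% with TNF lower. A fit without the filter tested all 29940 genes and called 9.21% of them, 5.79% higher and 3.42% lower. In it Lcn2 (log2 change 0.58, limma adjusted p = 0.0301) and Saa3 (0.43, adjusted p = 0.0314) were called, Saa1 was not (-0.45, adjusted p = 0.0605), and Pigr lost its call (adjusted p = 0.278). On this scale, log2(FPKM + 1), changes of such low genes are understated.

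**Figure D4:**
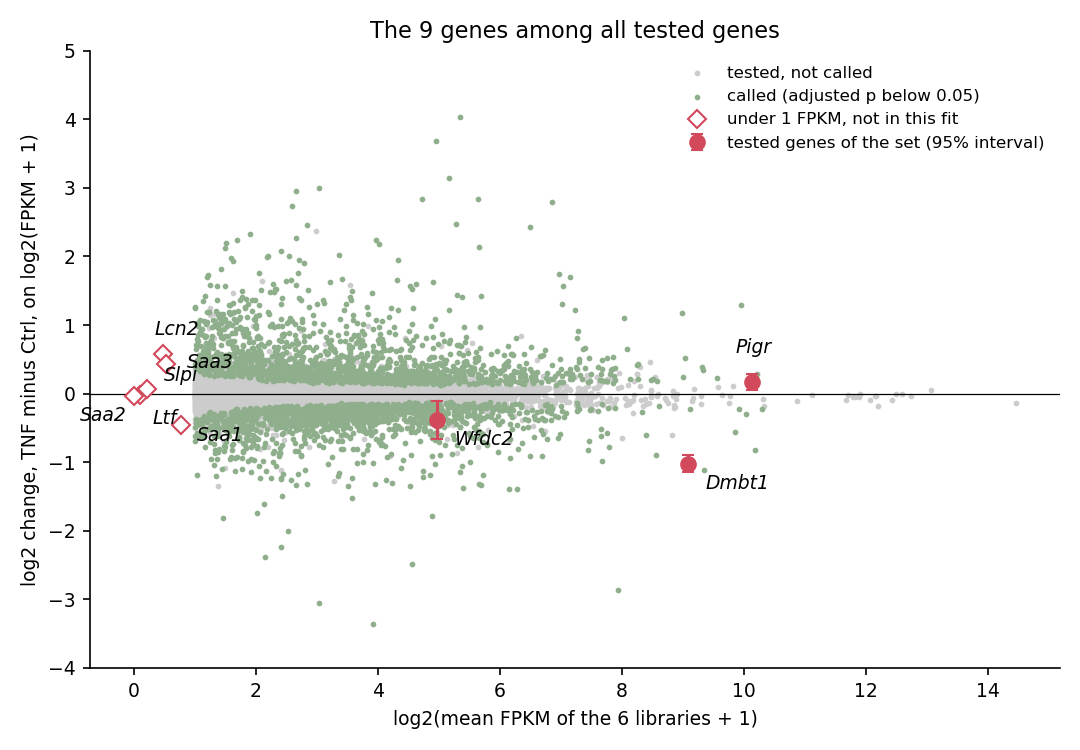
Log2 change (TNF minus Ctrl) against mean level for all 12350 tested genes, grey or green as not called or called at an adjusted p below 0.05; filled red points are Pigr, Dmbt1 and Wfdc2 with 95% intervals, and open diamonds the 6 genes under 1 FPKM. Dmbt1 lies at -1.02, Wfdc2 at -0.39 and Pigr at 0.17, close to the line at 0.

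RNA of other cell types can carry such transcripts, since neutrophils hold Ltf and Lcn2 and macrophages Saa3. Of 12 neutrophil markers 8 had a row; 6 of these were under the filter, among them Mpo at 0 to 0.0262 FPKM and Camp at 0 to 0.207 FPKM, and the list's sum of 18.7 to 35.6 FPKM in Ctrl and 30.0 to 44.4 FPKM in TNF came almost wholly from Ly6g and Lyz2. Ly6g itself rose from 17.2 ± 2.91 to 27.0 ± 1.19 FPKM (limma adjusted p = 0.00515). The pan-leukocyte gene Ptprc was far lower, at 0.146 to 0.382 FPKM over all libraries. Csf3r, under the filter, was at 0.0423 to 0.0647 FPKM in Ctrl and 0.09995 to 0.127 FPKM in TNF. The neutrophil markers Cxcr2 and Mmp8 were at 0 to 0.0204 and 0 to 0.0269 FPKM over all libraries, with overlap of the groups. The 11 macrophage markers summed to 19.5 to 37.9 FPKM in Ctrl and 15.3 to 39.2 FPKM in TNF, with Lyz2 or C1qa highest. Of the 5 tested, Mrc1 rose from 1.36 ± 0.0190 to 2.54 ± 0.551 FPKM (limma adjusted p = 0.00909) and 4 were not called. The part of either cell type in the Lcn2 and Saa3 values was not tested. The 9 fibroblast markers summed to 11.25 to 18.3 FPKM in Ctrl and 10.0 to 13.2 FPKM in TNF, with Vim highest. Only Thy1 was called higher (0.682 ± 0.310 to 2.60 ± 0.246 FPKM), and Col1a1 and Col3a1 were called lower. Under the filter, Col1a2 and Dcn were also lower in each TNF library than in any Ctrl library. For Lum, Pdgfra, Pdgfrb and Vim the groups overlapped. The Col1a1 call was lost in 4 of 6 fits with a library left out (limma adjusted p up to 0.0918). The 6 endothelial markers stayed under 1 FPKM each.

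Most absorptive cell markers fell alongside Dmbt1. Of 8 colonocyte markers 5 were called lower (Cyp2c55, Tmigd1, Fabp2, Slc26a3 and Aqp8), Ceacam20 higher and 2 not. The Ceacam20 call was lost without TNF 1 or TNF 3 (limma adjusted p up to 0.0523). The 8 markers summed to 1080 to 1213 FPKM in Ctrl and 548 to 599 FPKM in TNF. Dmbt1 was at 0.606 to 0.651 times that sum in Ctrl libraries and 0.611 to 0.658 times in TNF libraries, a ratio chosen after the values were seen and set mostly by Cyp2c55; without Cyp2c55 it was 2.43 to 2.92 and 2.19 to 2.27. Pigr was at 0.86 to 0.997 times the colonocyte sum in Ctrl and at 2.01 to 2.15 times in TNF. This shift came mostly from the fall of that sum, since the mean of Pigr itself was 1.13-fold higher. Against the sum of 12 epithelium markers, Pigr was at 0.199 to 0.232 times in Ctrl and 0.247 to 0.268 times in TNF. The 8 goblet cell markers, of which 3 were called higher and 1 lower, summed to 1278 to 1329 FPKM in Ctrl and 1271 to 1303 FPKM in TNF. In bulk RNA fewer cells of a type and less RNA per cell cannot be told apart, and the part of cell make-up in the Dmbt1 result was not tested. By the root mean square difference of log2 profiles over the 6 libraries, the nearest genes to Dmbt1 were Maob, a mitochondrial amine oxidase (17.0 ± 1.26 to 8.04 ± 0.398 FPKM, difference 0.06), and Tmigd1, an adhesion protein of absorptive cells (27.6 ± 1.93 to 12.4 ± 0.617 FPKM, difference 0.064). Nearest to Pigr were the desmosome gene Pkp1 (22.7 ± 0.427 to 25.4 ± 0.746 FPKM) and Gprasp1 (3.51 ± 0.124 to 4.06 ± 0.120 FPKM), both at a difference of 0.015, which says little for so small a change.

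Of 11 tested genes of vesicle transport that serve Pigr, 1 was called higher and 1 lower, beside 24.0% called of all tested genes, with a median log2 change of 0.03 against 0.00 over all tested genes. Rab11a, a GTPase of recycling endosomes, was at 20.7 ± 1.18 and 23.4 ± 0.487 FPKM (adjusted p = 0.0439), and the kinase gene Yes1, needed for transcytosis by Pigr in mice, at 14 ± 0.112 and 12.2 ± 0.867 FPKM (adjusted p = 0.0474). Each call was lost in 5 of 6 fits with a library left out, Rab11a in all but that without Ctrl 2 and Yes1 in all but that without TNF 1 (highest adjusted p 0.124 and 0.116). The motor gene Myo5b and Rab25, which both act in apical recycling, did not pass.

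Genes on the supply side of IgA were called in both directions, though few were tested. Of 12 genes that make, attract or instruct IgA cells 5 were tested, 2 called higher and 2 lower. Of all tested genes 12.9% were called higher and 11.1% lower. Tgfb1, whose cytokine directs class switching to IgA, rose from 0.812 ± 0.112 to 2.83 ± 0.268 FPKM (3.49-fold, limma adjusted p = 0.000151). It was at 0.91 FPKM or less in each Ctrl library, so it passed the filter through the TNF group. Aldh1a1, an enzyme of retinoic acid synthesis, fell from 60.3 ± 8.33 to 22.4 ± 1.74 FPKM (adjusted p = 7.03e-05). Tnfsf13, which encodes the plasma cell factor APRIL, was at 9.46 ± 0.583 and 12.3 ± 1.39 FPKM, called but lost without Ctrl 1, Ctrl 3 or TNF 1 (adjusted p up to 0.0618). The plasma cell attractant Ccl28, at 39.1 ± 2.32 and 33.8 ± 0.791 FPKM, was called lower and lost without any library other than Ctrl 3 (adjusted p up to 0.0850).

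Lymphocyte transcripts were scarce, and those of T cells had higher sums in the TNF libraries. Igha, the IgA heavy chain, was at 0.0812, 0.0275 and 0.0684 FPKM in Ctrl 1 to 3 and at 1.35, 0.804 and 0.316 FPKM in TNF 1 to 3, below the filter. Jchain, which joins the IgA dimer that Pigr binds, stayed at or under 0.4 FPKM in every library. The B and plasma cell list, dominated by Sdc1, which epithelium also expresses, summed to 60.45 to 64.95 FPKM in Ctrl and 58.2 to 64.94 FPKM in TNF. Sdc1 itself was called lower, a call lost in 5 of 6 fits with a library left out (limma adjusted p up to 0.118). Ighm, the IgM heavy chain, was at 0.818 ± 0.995 and 3.10 ± 0.578 FPKM, called higher but lost without Ctrl 2, Ctrl 3, TNF 2 or TNF 3 (limma adjusted p up to 0.0771). The light chain gene Igkc was at 1.61 ± 2.57 and 5.05 ± 1.48 FPKM, with overlap. Ctrl 1 stood apart in both: Ighm was at 1.97 FPKM there, against 0.198 and 0.289 FPKM in Ctrl 2 and 3. Igkc was at 4.57 FPKM in Ctrl 1, against 0.242 and 0 FPKM. The 8 T cell markers summed to 0.9495 to 1.44 FPKM in Ctrl and 5.70 to 6.79 FPKM in TNF, with Lck highest in Ctrl and Trac in TNF, and the pan-leukocyte gene Ptprc was at 0.146 to 0.198 and 0.374 to 0.382 FPKM. Their part in the results for Tgfb1, Igha, Lcn2 and Saa3 was not tested.

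Of 24 tested genes known to regulate the set, 9 were called higher, 3 lower and 12 not, with a median log2 change of 0.06, beside 12.9% called higher and 11.1% lower of all tested genes. With quantile normalization the counts were 9 higher and 5 lower. The interferon regulatory factor Irf1, named as an activator of PIGR in human cells, rose from 5.44 ± 0.198 to 16.0 ± 0.485 FPKM (limma adjusted p = 2.35e-06), and the NF-κB subunit Relb from 6.97 ± 0.607 to 20.96 ± 0.488 FPKM (adjusted p = 5.57e-06). The interleukin-6 family receptor chain Il6st rose 1.77-fold and the RNase gene Zc3h12a (regnase-1), a brake on inflammatory mRNAs, 1.97-fold. Among those called lower, the interleukin-1 receptor gene Il1r1 fell from 6.24 ± 0.468 to 3.84 ± 0.0198 FPKM. Klf5 was also called lower (log2 change -0.23), a call lost without TNF 2 or TNF 3 (adjusted p up to 0.0632). Of the C/EBP genes, Cebpb, a factor of acute-phase genes, was at 0.0377 to 0.147 FPKM in all libraries. Cebpa was at 9.06 ± 1.12 and 7.35 ± 0.209 FPKM (limma adjusted p = 0.0511) and Cebpd at 1.08 ± 0.119 and 1.28 ± 0.498 FPKM (adjusted p = 0.645), both not called. The interleukin-17 receptor genes Il17ra and Il17rc, whose ligand induces Lcn2 in mucosa, did not pass.

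Receptors and partners of the secreted proteins gave 4 higher, 1 lower and 6 not called of 11 tested, with a median log2 change of 0.18. Slc22a17, a receptor for lipocalin 2, rose from 0.545 ± 0.0682 to 1.63 ± 0.158 FPKM (limma adjusted p = 0.000958). Its mean over all libraries, 1.09 FPKM, passed the filter only through the TNF group. It was tested, and called, in 4 of 6 fits with a library left out. Tlr2, which serum amyloid A can engage, rose from 2.43 ± 0.202 to 6.27 ± 0.34 FPKM (adjusted p = 3.96e-05). The membrane-binding annexin gene Anxa2 rose 1.40-fold, but was not called once Ctrl 1 and TNF 3 were both left out. The goblet cell peptide gene Tff3 was at 194.6 ± 4.15 and 221 ± 4.66 FPKM, called but lost without Ctrl 1, TNF 1 or TNF 3 (adjusted p up to 0.0593). Lrp1, an endocytic receptor for lactoferrin, fell from 3.99 ± 0.427 to 2.39 ± 0.152 FPKM (adjusted p = 0.00206).

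Of the acute-phase genes only 3 of 21 were tested. Il1rn, the interleukin-1 receptor antagonist, rose from 45.4 ± 4.24 to 68.2 ± 3.95 FPKM and transferrin (Trf), an iron carrier, from 2.18 ± 0.429 to 5.45 ± 1.2 FPKM (limma adjusted p = 0.00118 and 0.00278), while haptoglobin (Hp) did not pass. Serpina3n was at 0.214 to 0.574 FPKM in Ctrl and 0.891 to 1.26 FPKM in TNF, under the filter. Of 6 tested protease inhibitors other than the members, none of them a WFDC gene, 2 were called higher and none lower. Spink4, a goblet cell product, was at 147 ± 13.7 and 189.7 ± 17.3 FPKM, a call lost without Ctrl 3 or TNF 3 (adjusted p up to 0.0538), and the intracellular inhibitor gene Serpinb6a at 46.3 ± 3.29 and 53.1 ± 1.08 FPKM, called in no fit with 1 library left out but that without Ctrl 2 (adjusted p up to 0.118).

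Other secreted defence genes of the epithelium set the scale for these changes. Of 11 tested, 6 were called higher and 2 lower, with a median log2 change of 0.51. Complement C3, the antimicrobial RNase gene Ang4, the peptidoglycan-binding Pglyrp1 and galectin-9 (Lgals9) had log2 changes of 4.03, 2.80, 1.74 and 0.62, against 0.17 for Pigr. Retnlb, a bactericidal goblet cell protein, was 1.95-fold lower, close to the 2.03-fold of Dmbt1, and complement factor B (Cfb) 1.40-fold lower. Reg3g, a lectin that kills Gram-positive bacteria, was at 0.0883 to 0.266 FPKM in Ctrl and 0.799 to 0.979 FPKM in TNF, under the filter like Lcn2 and Saa3. Reg3b of the same list, also under the filter, went the other way, at 0.0293 to 0.175 FPKM in Ctrl and 0 in each TNF library.

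**Figure D5:**
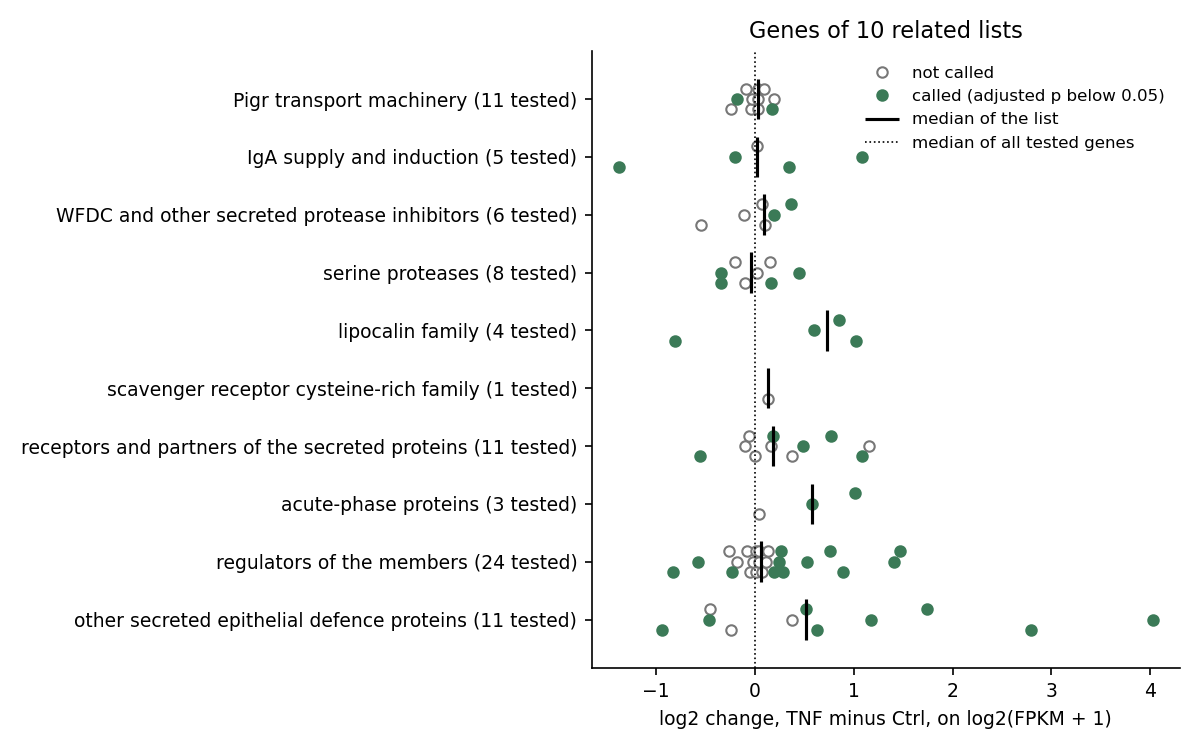
Log2 change (TNF minus Ctrl) of each tested gene in 10 related lists, filled where called at an adjusted p below 0.05, with the list's median (bar) and the median of all tested genes (dotted line). Pigr transport genes have a median of 0.03, while other secreted defence genes reach from -0.94 for Retnlb to 4.03 for C3.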

How the data were processed

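RNA of 6 colon organoid libraries (3 Ctrl, 3 TNF) was sequenced. Cutadapt 1.9, FastQC and build GRCm38 are named in the submitters' processing notes; which aligner, counter or strand setting was used is not stated. The single table of normalized gene values was deposited by the authors, read here as FPKM because value times exonic length in kilobases summed to 959396 to 964319 per library. Low values of single-exon genes came in steps of 1 base (76.1% to 78.9% within 0.1 of a whole number, 20% by chance), giving 4.18 to 4.8 gigabases per library and 149 bases as 1 read; whole reads were not recovered, so no count test was run.

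Values were tested as log2(FPKM + 1) by limma (version 3.58.1, R 4.3.3; prior variance dependent on the mean; group as the only term; two-sided; Benjamini-Hochberg over the 12350 genes whose mean reached 1 FPKM; threshold 0.05), a procedure checked on simulated data. Positions are from GENCODE M21. Of the 9 members 3 passed the filter. Genes named are all members, the 2 nearest profiles of each called member (predicted genes left out), up to 4 called genes of each list with the smallest p and those against its direction, and Tnf, Nfkbia and tissue markers; genes under the filter, and others of the lists that did not pass, were chosen after their values were seen; 1 gene that this rule names is not reported here. Members and lists were chosen with earlier results of these data known. Alternatives were other pseudocounts, filters, scalings, prior variances, a replicate block and libraries left out.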

Additional observations from a re-analysis of the deposited data

How the results depend on the processing

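Dmbt1 kept its call in all 16 alternatives, and Pigr its direction in 16 and its call in 6. The count of members called higher, 1 as reported, was 0 with median scaling, 0 with a replicate block and 0 without both Ctrl 1 and TNF 3. Without a filter it was 2, Lcn2 and Saa3. With 1 library left out it ranged from 0 to 0. The count of members called lower, 1 as reported, was 2 with a filter at 5 FPKM and 1 to 2 with a library left out. Over all genes, 1595 were called higher and 1374 lower. Leaving out 1 library gave 1134 to 1447 higher and 910 to 1175 lower (910 without Ctrl 1), and leaving out both Ctrl 1 and TNF 3 gave 817 and 596. Of 320 list counts under alternatives, 64 lay over 1.5 times from the reported count; these counts are small. Replicate numbers did not pair the libraries: deviations of same-numbered libraries correlated at -0.0043, -0.10 and 0.0053, and 1 of 6 libraries correlated best with its own number. With the block, 1256 genes were called higher and 1004 lower, and Pigr had an adjusted p of 0.168. The log2 changes of Lcn2, Saa3 and Saa1 depended on the pseudocount: with 0.1 in place of 1 they were 2.04, 1.24 and -0.98. An exact permutation test of 3 against 3 libraries cannot go below 0.1. At under 1 FPKM, values rest on few reads.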

Other observations

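Relatives of the members by protein family were mostly scarce in these organoids. Of 16 lipocalin family genes besides Lcn2, 7 had a row and 4 were tested, all at low levels. All 4 were called, beside 24.0% of all tested genes. Apod and Ptgds had means under 1 FPKM in Ctrl, and Ambp in TNF. They passed the filter through their higher group, so the count of calls says little. Apod rose from 0.492 ± 0.250 to 1.67 ± 0.0396 FPKM, the prostaglandin D synthase gene Ptgds from 0.524 ± 0.466 to 2.02 ± 0.261 FPKM and the retinol carrier gene Rbp4 from 1.05 ± 0.147 to 2.10 ± 0.290 FPKM, while Ambp fell from 2.35 ± 0.545 to 0.906 ± 0.231 FPKM (limma adjusted p 0.00267, 0.00836, 0.0045 and 0.00562). Apod passed the filter in 3 of 6 fits with a library left out, and Ptgds was not called without both Ctrl 1 and TNF 3 (adjusted p = 0.0621). Of 17 genes with scavenger receptor cysteine-rich domains besides Dmbt1, Lgals3bp, a secreted glycoprotein that binds galectins, was the only one tested; it was at 97.1 ± 2.60 and 106 ± 5.77 FPKM in Ctrl and TNF, which did not reach the threshold (limma adjusted p = 0.0986).

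Serine proteases, the enzymes that inhibitors of the WFDC family restrain, gave 2 higher, 2 lower and 4 not called of 8 tested, with a median log2 change of -0.04. Tmprss2, a membrane protease of epithelia, rose from 71.8 ± 2.78 to 98.4 ± 3.47 FPKM (limma adjusted p = 0.000424), and the kallikrein gene Klk1 fell from 138 ± 4.28 to 108 ± 2.27 FPKM (adjusted p = 0.000922). Tmprss4 was called higher and Prss23 lower, and these calls were lost in 5 and 4 of 6 fits with a library left out. The neutrophil peroxidase gene Mpo, listed with the proteases for its granule, was at 0 in 5 of 6 libraries.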
